A study of Mus musculus with 8 samples.

Results

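Slc2a6 and Slc46a3 encode solute carriers of the lysosomal membrane. The pair was chosen by the untreated levels in siRNA-transfected mouse macrophages, where each gene was higher with both siRNAs of the study, siMLL and siGABP, than with siCtrl. Each gene was represented by 1 probe (450609 for Slc2a6, 6840484 for Slc46a3), so that 2 of 15946 named genes, and 2 of the 23978 probes on the array, are described here. Both probes lay among the 11989 probes kept by an intensity filter. The cells were thioglycollate-elicited peritoneal macrophages of C57BL/6 mice, and every group had been given an siRNA: a scrambled one (siCtrl), one against MLL, a histone methyltransferase (siMLL), or one against GABP, a transcription factor of the ETS family (siGABP). They were left untreated or treated for 6 h with Kdo2 lipid A (KLA), which activates Toll-like receptor 4 (TLR4). Of the 8 Illumina arrays, 3 were of siMLL untreated cells, and siCtrl untreated, siGABP untreated, siCtrl KLA, siMLL KLA and siGABP KLA cells had 1 array each. The labels number the 3 siMLL untreated arrays as replicates and say nothing of their animals or cultures, so the p-values may measure technical spread only. The labels do not give the siRNA sequences, the MLL gene or the GABP subunit.

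Slc2a6 (also called GLUT6) belongs to the facilitative hexose transporters and, unlike the family members of the plasma membrane, sits in lysosomes. Slc46a3 belongs to the small family of the proton-coupled folate transporter. It exports solutes from the lysosome, and in human cells it is known for releasing the breakdown products of certain antibody-drug conjugates and for carrying fragments of bacterial cell wall. Macrophages digest what they engulf in lysosomes, and transporters of this kind return the products to the cytosol.

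Both genes lie on the minus strand, Slc2a6 on chromosome 2 (27021363 to 27028000) and Slc46a3 on chromosome 5 (147875897 to 147894861) of GRCm38.p6. The stretch just upstream of each gene is shown because the siRNA against GABP targets a promoter-binding factor, and because both stretches hold CCAAT boxes, which are in capitals (ATTGG where the box is on the other strand). The sequences are from RefSeq, run 5′ to 3′ on the gene's strand and cover chr2:27028001-27028248 and chr5:147894862-147895065.
Slc2a6: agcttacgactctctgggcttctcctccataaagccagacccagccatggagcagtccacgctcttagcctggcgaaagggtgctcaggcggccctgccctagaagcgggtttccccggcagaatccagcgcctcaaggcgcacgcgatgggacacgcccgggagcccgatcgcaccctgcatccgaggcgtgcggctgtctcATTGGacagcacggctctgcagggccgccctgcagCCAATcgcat
Slc46a3: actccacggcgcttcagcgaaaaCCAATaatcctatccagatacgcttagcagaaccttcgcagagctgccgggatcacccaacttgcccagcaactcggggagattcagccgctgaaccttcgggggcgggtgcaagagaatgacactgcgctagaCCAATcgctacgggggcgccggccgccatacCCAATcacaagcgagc
The motif search covered the 250 bases before each listed start, on both strands. This window is not quite the stretch shown, since its last 2 bases for Slc2a6 and its last 46 bases for Slc46a3 lie inside the annotated gene and are not printed. The Slc2a6 window held 2 CCAAT boxes, at -47 and -12, and the Slc46a3 window held 3, at -227, -93 and -62 (the first base of each box, with -1 next to the start). At least 1 CCAAT box was found in 33.8% of the 32851 mouse windows of that length. That share does not tell how many windows hold 2 or 3 boxes, so it is no background for those counts. Each window also held 1 GC box (GGGCGG, in 32.7% of windows) and 1 GGAA, the core of ETS sites, which 93.4% of windows contain. The GGAA of Slc46a3, at -43, lies in the part inside the gene. The longer ETS sequence CGGAAG (13.6% of windows), TATAAA (12.4%), the E-box CACGTG (6.02%), TGANTCA (6.75%), TGACG (17.8%), and the ISRE (2.98%) and NF-kB (3.90%) motifs were not found in either window. GGAA lies within CGGAAG, so these searches overlap. The windows were rich in G and C, at 65.2% for Slc2a6 and 60% for Slc46a3, against a median of 52.4% over all windows.

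The arrays were first checked against their labels. Of 8 macrophage markers 6 had a named probe, and all 6 passed the filter. Their summed intensity ran from 32802 in siCtrl KLA to 41822 in siGABP KLA cells. Most of this sum is Lyz2 (23069 to 33886), while Itgam (151.8 to 187.8) and Fcgr1 (190.8 to 254.5) were dim. With siGABP after KLA, 1 of the 6 was called higher by limma, and 0 were called in the other siRNA comparisons. None of the 2 B cell marker probes passed the filter, and 1 of 7 neutrophil and 1 of 5 T and NK cell markers did. So did 1 of 4 mast cell, 1 of 4 eosinophil and 2 of 4 dendritic cell markers. Of these, only the neutrophil marker S100a8 was bright (688.3 to 919.5). The others were dim, against a median probe of 139.5. Cd3d read 133.6 to 156.7, Cma1 142.7 to 180.9, Prg2 147.0 to 162.5, Xcr1 131.9 to 162.2 and Zbtb46 156 to 200. All 7 mesothelial and fibroblast markers passed, with summed intensities of 5100 in siCtrl untreated, 4298 in siMLL untreated, 4423 in siGABP untreated, 4183 in siCtrl KLA, 4668 in siMLL KLA and 4393 in siGABP KLA cells. The sum is made up mostly of Dcn. The mesothelial markers Upk3b and Wt1 were highest with siCtrl in both KLA states. Upk3b read 231.1 with siCtrl, 172.7 with siMLL and 167.6 with siGABP in untreated cells, and 211.0, 174.1 and 166.8 after KLA. Wt1 read 439.1, 341.5 and 323.5 in untreated cells and 451.9, 376.2 and 358.6 after KLA, in the same order. Msln was also highest with siCtrl in both states, though by little in untreated cells. It read 185.6 with siCtrl, 179.9 with siMLL and 177.2 with siGABP there, and 204.8, 178.3 and 186.3 after KLA. The fibroblast markers differed: Col1a1 was lowest with siCtrl in both states. Dcn, Col1a2 and Col3a1 were highest with siCtrl in untreated cells. After KLA, Dcn was lowest with siCtrl, and Col1a2 and Col3a1 were highest with siMLL. Of the 7 markers, 0 passed the limma test in any siRNA comparison. Upk3b, Wt1 and Msln thus read highest on the siCtrl arrays, on which each siRNA difference of Slc2a6 and Slc46a3 rests. There is 1 such array in each KLA state, and none of these marker differences was called. Whether these markers have a part in the differences of Slc2a6 and Slc46a3 was not tested. The brightest of 3 probes of Gabpa, the DNA-binding subunit of GABP, read 127.4 and 157.4 in siGABP cells without and with KLA. These lay below the 202.3 and 318.4 of siCtrl cells. In siMLL cells the same probe read 180.1 to 187.5 untreated and 274.9 after KLA, also below siCtrl. No probe was paired with Kmt2a, the gene of MLL, so the siMLL arrays have no such check. Array pairs correlated across probes at r = 0.9957 to 0.9971 within the siMLL triplicate, at 0.9859 to 0.9938 between siRNAs of 1 KLA state, and at 0.9055 to 0.9273 between KLA states.

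The level of Slc2a6 in untreated cells was lowest with siCtrl. Its deposited intensity, a linear scale on which the median probe read 139.5, was 540.6 in siCtrl untreated cells, 1699, 1570 and 1680 in the 3 siMLL untreated arrays (1650 ± 69.6, SD, n = 3), and 1844 in siGABP untreated cells. After KLA it was 12732 with siCtrl, 13100 with siMLL and 11228 with siGABP. The siCtrl untreated array thus stood alone at the low end, the other untreated arrays lay close together, and the 3 KLA arrays lay far above all 5 untreated arrays, brighter than 99.5% to 99.6% of the probes. From low to high, the order was siCtrl, siMLL and siGABP untreated, then siGABP, siCtrl and siMLL after KLA. The siCtrl KLA and siMLL KLA arrays, neighbours at the top, differed by 0.04 on the log2 scale, less than the SD of 0.06 within the triplicate.

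Slc46a3 had a different order. Its intensity was 818.5 in siCtrl untreated cells, 2402, 2527 and 2186 in the siMLL untreated arrays (2371 ± 172, SD, n = 3) and 1740 in siGABP untreated cells. After KLA it read 245.1 with siCtrl, 553.1 with siMLL and 497.0 with siGABP. All 3 KLA arrays lay below all 5 untreated arrays, and in either KLA state the siCtrl array was the lowest. From low to high, the order was siCtrl, siGABP and siMLL after KLA, then siCtrl, siGABP and siMLL untreated. The siGABP KLA and siMLL KLA arrays differed by 0.16 on the log2 scale, within the range of 0.21 spanned by the 3 siMLL untreated arrays.

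**Figure D1:**
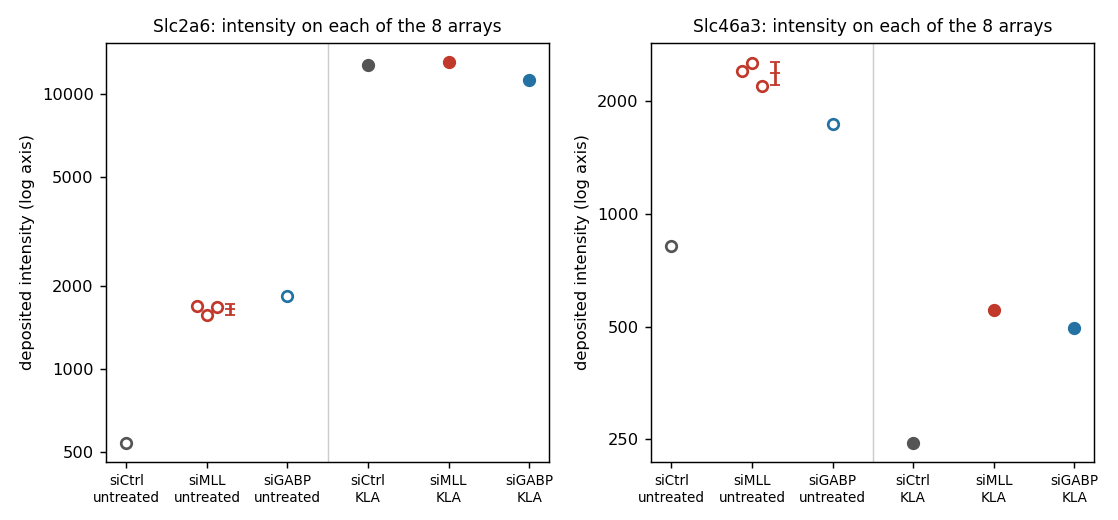
Deposited intensity (log axis) of the Slc2a6 probe (left) and the Slc46a3 probe (right) on each of the 8 arrays, by siRNA and KLA state; each point is 1 array, open untreated and filled KLA, and the bar beside the siMLL untreated points is their mean ± SD (n = 3). Slc2a6 ran from 540.6 in siCtrl untreated to 13100 in siMLL KLA cells, and Slc46a3 from 245.1 in siCtrl KLA to 2527 in a siMLL untreated array.

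The untreated differences from siCtrl chose this pair and are given as a description, with no test. On background-corrected, quantile-normalised log2 values, Slc2a6 was 3.18-fold higher with siMLL (log2 1.67) and 3.57-fold higher with siGABP (log2 1.83). Slc46a3 was 2.97-fold higher with siMLL (log2 1.57) and 2.17-fold higher with siGABP (log2 1.12). Among rises over the 11989 probes, the Slc2a6 difference ranked 1 by size for each siRNA. That of Slc46a3 ranked 2 for siMLL and 5 for siGABP. In these untreated comparisons the shares of all probes called higher and lower (limma, adjusted p under 0.05) were 0.809% and 0.492% for siMLL and 0.35% and 0.292% for siGABP, from which nothing is read about the pair. Both comparisons rest on the same single siCtrl untreated array. Without the correction, the intensity ratios were 3.05 and 3.41 for Slc2a6 and 2.90 and 2.13 for Slc46a3. Set against each other, the siGABP and siMLL untreated cells differed by 0.16 for Slc2a6 (siGABP higher) and by -0.45 for Slc46a3 (siGABP lower) on the log2 scale. In bulk RNA, a change in the number of cells that express a gene and a change in RNA per cell cannot be told apart.

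The KLA arrays were not used in choosing the genes by their untreated levels, although their values were known by then. For Slc2a6, the siMLL KLA array lay just above and the siGABP KLA array below the siCtrl KLA array. The difference was 0.04 ± 0.11 (SE) on the log2 scale with siMLL (95% interval -0.21 to 0.29, limma adjusted p = 0.895) and -0.18 ± 0.11 with siGABP (-0.43 to 0.07, limma adjusted p = 0.325). Neither passed the test.

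Slc46a3 was higher with either siRNA after KLA as well. With siMLL it was 2.45-fold higher (log2 1.29 ± 0.12 SE, interval 1.0 to 1.58, limma adjusted p = 0.0191), which ranked 3 by size among rises. In that comparison 0.234% of all probes were called higher and 0.0834% lower. With siGABP it was 2.19-fold higher (log2 1.13 ± 0.12 SE, interval 0.84 to 1.42, limma adjusted p = 0.00937), which ranked 8 among rises, in a comparison that called 3.68% of probes higher and 2.81% lower. The only replicates behind these tests are the 3 siMLL untreated arrays (2 residual degrees of freedom). Their spread was moderated by limma towards that of all probes (5.74 prior degrees of freedom) and taken to hold for the single arrays, and both tests share the siCtrl KLA array, whose 245.1 was the lowest Slc46a3 value of all. With a smaller offset of 16 in the background correction the siMLL call ended (log2 1.45, limma adjusted p = 0.0956).

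**Figure D2:**
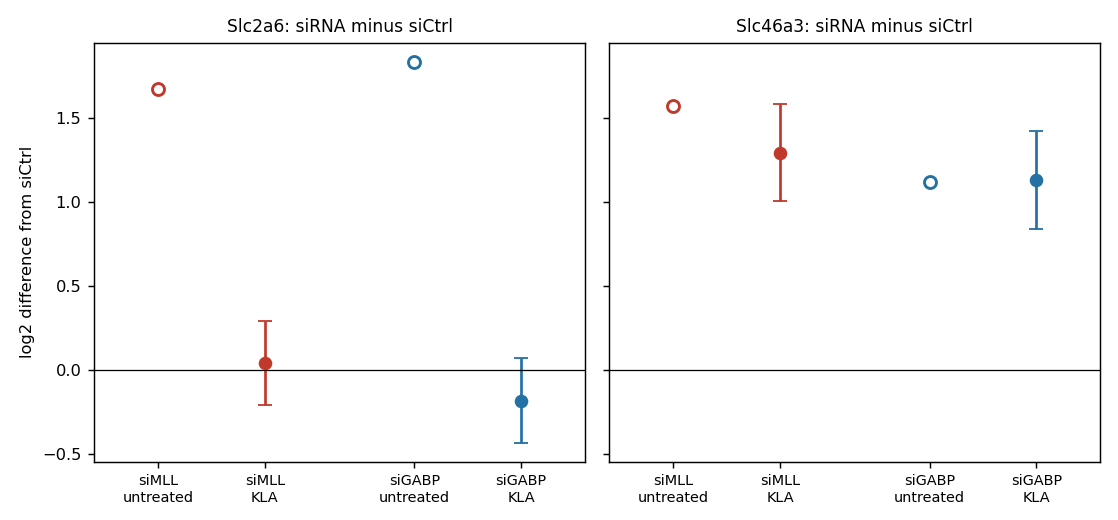
Log2 difference from siCtrl in the same KLA state for Slc2a6 (left) and Slc46a3 (right); open points are untreated cells, whose values chose the genes and carry no interval, and filled points are KLA-treated cells with the 95% interval of the limma fit. The KLA points of Slc2a6 lay at 0.04 and -0.18 and those of Slc46a3 at 1.29 and 1.13.

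KLA moved the 2 genes in opposite directions. Averaged over the siRNA groups (3 KLA against 5 untreated arrays), Slc2a6 rose 10.3-fold (log2 3.37 ± 0.25 SE, 95% interval 2.82 to 3.93, limma adjusted p = 4.08e-07), number 64 by size among rises. Slc46a3 fell 4.01-fold (log2 -2.01 ± 0.08 SE, interval -2.17 to -1.84, limma adjusted p = 1.02e-09), number 35 among falls. A call was common in this comparison, which called 19.9% of all probes higher and 33.3% lower. It uses the untreated arrays whose values chose the genes, so its p-values are not independent of that choice. The low siCtrl untreated value of Slc2a6 adds to its rise. The arrays were normalised to 1 distribution, so each change is relative to the other probes.

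The KLA response was also read within each siRNA group, which has 1 KLA array. KLA over untreated was 25.02-fold for Slc2a6 in siCtrl cells, 8.09-fold in siMLL cells and 6.18-fold in siGABP cells. The siCtrl cells had the lowest untreated level and the largest ratio. For Slc46a3, KLA-treated cells were 3.70-fold lower with siCtrl, 4.49-fold lower with siMLL and 3.68-fold lower with siGABP. As differences from the siCtrl response on the log2 scale, these were -1.63 (siMLL) and -2.02 (siGABP) for Slc2a6 and -0.28 and 0.01 for Slc46a3. They contain the untreated values that chose the genes and were not tested. Without the siCtrl untreated array, the siCtrl KLA array carries no weight in the additive KLA estimate. The averaged rise of Slc2a6 then rests on siMLL and siGABP cells alone, at 7.26-fold (log2 2.86).

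**Figure D3:**
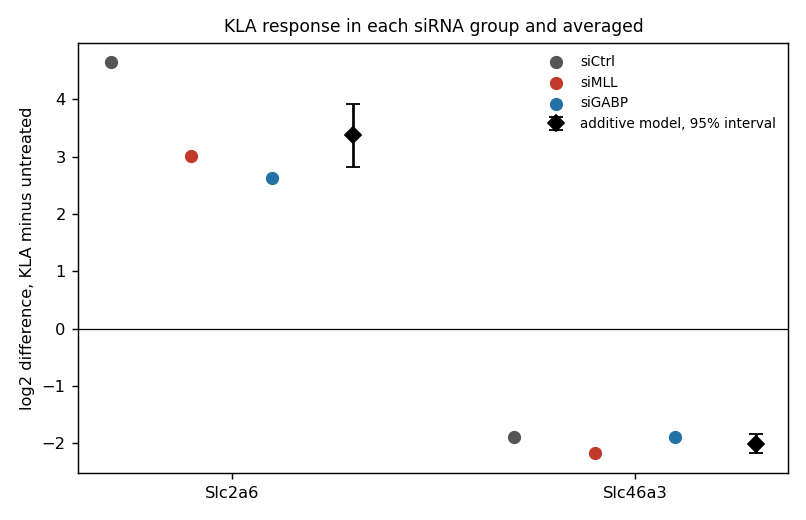
Log2 difference between KLA-treated and untreated cells for Slc2a6 and Slc46a3; circles give each siRNA group (no interval, since the KLA groups have 1 array) and diamonds the average of the additive limma model with its 95% interval. The circles of Slc2a6 span 2.63 to 4.64, and those of Slc46a3 span -2.17 to -1.88.

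Of 11 further SLC2 genes 9 had a named probe and 5 passed the filter, of which 2 fell and 0 rose with KLA (median log2 -0.07, against -0.03 over all probes tested). Over all probes 33.3% fell and 19.9% rose, so that counts on 5 genes do not set the family apart. Slc2a3, a high-affinity glucose transporter, fell by 0.31 on the log2 scale (limma adjusted p = 0.00547) and Slc2a8, another intracellular member, by 0.28 (limma adjusted p = 0.00309). The values of the others that passed the filter were 0.00 for Slc2a1, the main glucose transporter of the plasma membrane, 0.09 for Slc2a2, the low-affinity transporter of liver and pancreas, and -0.07 for the urate transporter Slc2a9. Of the 5, only Slc2a1 was bright, at 1037 to 1509 over the arrays. The other probes were dim, against a median probe of 139.5. Slc2a2 read 131.9 to 146.5, Slc2a3 132.2 to 188.6, Slc2a8 147.0 to 192.9 and Slc2a9 117.6 to 156.0. With siGABP after KLA, Slc2a1 was lower (log2 -0.51, limma adjusted p = 0.0342), and no other SLC2 gene of the list passed in any siRNA comparison. That call ended without the intensity filter (limma adjusted p = 0.0886), with the offset of 16 (limma adjusted p = 0.0678) and without siMLL untreated replicate 3 (limma adjusted p = 0.0506). The untreated differences from siCtrl of the 5 genes ran from -0.11 to 0.14 with siMLL and from -0.40 to 0.16 with siGABP. In the SLC46 family, the folate transporter Slc46a1 fell with KLA by 0.36 (limma adjusted p = 0.00124). It did not pass in the siRNA comparisons after KLA (log2 -0.14 with siMLL and -0.25 with siGABP) or in untreated cells (0.16 and -0.23), and Slc46a2 lay below the filter.

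Other transporters and channels of the lysosomal membrane moved either way with KLA. Of 29 listed, 28 had a named probe and 27 passed the filter, of which 16 fell and 5 rose (median log2 -0.29, against -0.03 over all probes). Falls also outnumbered rises over all probes, at 33.3% against 19.9%, and whether the list differs from them was not tested. Tpcn1 and Tpcn2, cation channels of endosomes and lysosomes, fell by 1.77 and 1.08 on the log2 scale, the cystine exporter Ctns by 1.33 and the heme transporter Slc48a1 by 1.06. The largest rise was 0.73, for Slc15a3, which carries histidine and peptides including bacterial muropeptides. Smaller rises were called for the chloride-proton exchanger Clcn7 (0.29), for Cln3 (0.28) and for Mfsd8 (0.26), both mutated in neuronal ceroid lipofuscinosis. The 27 values ran from -1.77 to 0.73, so that both Slc46a3 and Slc2a6 lay outside their range. Without the siCtrl untreated or the siCtrl KLA array, 3 rises and 16 falls remained by count, and the Mfsd8 call ended (limma adjusted p = 0.0809). It also ended without the siMLL KLA array (limma adjusted p = 0.12).

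With siMLL, 0 of these 27 genes passed after KLA and 0 in untreated cells, with values of -0.48 to 0.62 and -0.34 to 0.37. Few probes of any kind passed there (0.234% higher and 0.0834% lower after KLA, 0.809% and 0.492% in untreated cells). With siGABP, 2 passed after KLA, both higher: Slc48a1 (log2 0.60, limma adjusted p = 0.0217) and Abcd4, needed to move vitamin B12 out of lysosomes (0.50, limma adjusted p = 0.0364). Without the intensity filter both calls ended (limma adjusted p = 0.0528 and 0.0955), and that of Abcd4 also ended with the offset of 16 (limma adjusted p = 0.0504) and without siMLL untreated replicate 3 (limma adjusted p = 0.0607). In siGABP untreated cells 0 passed, with values of -0.37 to 0.43. Over all probes 3.68% were higher and 2.81% lower with siGABP after KLA, and 0.35% and 0.292% in untreated cells, so these counts show nothing particular to the list.

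**Figure D4:**
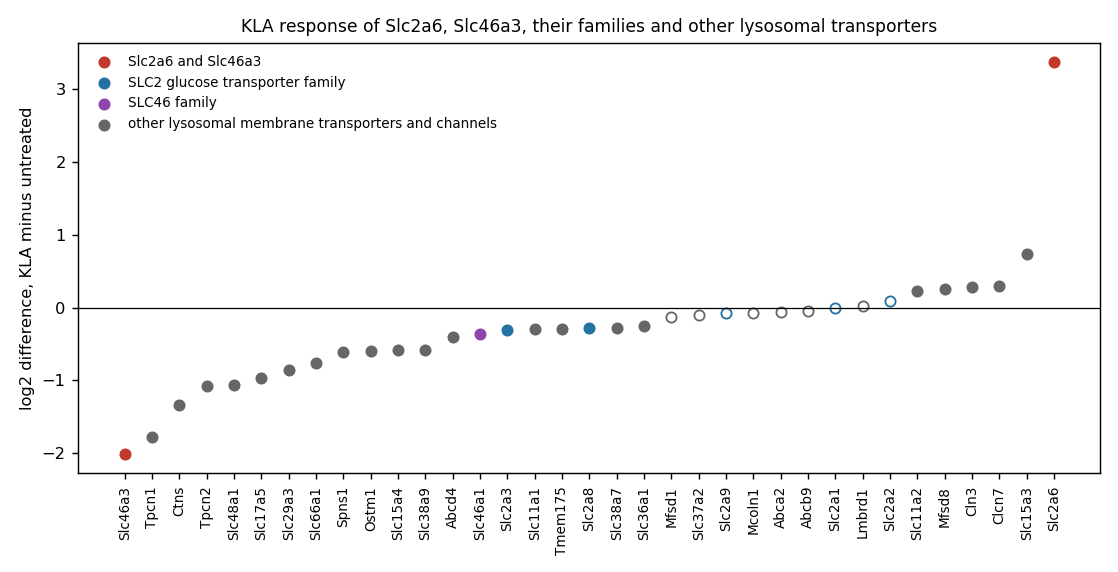
KLA response (log2 difference averaged over the siRNA groups) of Slc2a6 and Slc46a3 (red), the other measured SLC2 (blue) and SLC46 (purple) genes and other lysosomal membrane transporters and channels (grey), 1 probe per gene, in order of size; filled points passed the limma test at an adjusted p under 0.05. Slc46a3 lies at the low end at -2.01 and Slc2a6 at the high end at 3.37, with the other genes between -1.77 and 0.73.

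Genes of the processes next to these transporters were read in the same way. Of the 13 measured glycolysis and lactate transport genes (18 listed), 4 rose with KLA and 8 fell (median log2 -0.26), where 19.9% and 33.3% of all probes did. The phosphofructokinase Pfkp rose 2.27-fold and the hexokinase Hk2 2.03-fold, with smaller rises for Pfkfb3 (log2 0.34), which makes an activator of phosphofructokinase, and Hk1 (0.24). The Hk1 call ended without either siGABP array (limma adjusted p = 0.091). Triosephosphate isomerase Tpi1 fell by 0.82, the phosphofructokinases Pfkl and Pfkm by 0.66 and 0.49, and the pyruvate kinase Pkm by 0.53. After KLA, 4 of the 13 were higher with siGABP, among them Gapdh (0.59), Hk1 (0.59) and Pfkfb3 (0.49), where 3.68% of all probes were, and 0 passed with siMLL. These 3 calls ended without the intensity filter (limma adjusted p from 0.0555 to 0.113), those of Gapdh and Pfkfb3 also with the offset of 16 (limma adjusted p = 0.0678 and 0.0819), and that of Pfkfb3 without siMLL untreated replicate 3 (limma adjusted p = 0.0622). Of 3 measured genes listed for muropeptide sensing, the receptors Nod1 and Nod2 rose 6.00-fold and 2.38-fold with KLA. Of the 3 measured transcription factors of the family that drives lysosomal genes, Tfec (0.66) and Mitf (0.44) rose and Tfe3 fell by 0.68, while Tfeb lay below the filter. No gene of these last 2 lists passed in a siRNA comparison, and no gene of any list passed with either siRNA in untreated cells.

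The genes whose pattern over the 6 groups was most like that of each transporter were taken from 1478 probes that varied by at least 1 log2 unit. These correlations are a description over 6 group means that share the siCtrl arrays and 1 large KLA difference. Closest to Slc2a6 were Gas7, an actin-associated adaptor (r = 0.993), the AP-1 family factor Batf (0.988), the RNA-binding protein Rbpms (0.986), the integrin regulator Apbb1ip (0.985) and the junction protein Pkp4 (0.984). Their untreated differences from siCtrl were smaller, at most those of Gas7, with 0.76 for siMLL and 1.03 for siGABP. Gas7 read 352.2 in siCtrl untreated, 572.6 in siMLL untreated and 686.1 in siGABP untreated cells, and 2557 to 2845 after KLA. Like Slc2a6, it had its lowest value in siCtrl untreated cells, which is not independent of choosing Gas7 for its likeness.

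Closest to Slc46a3 were the secreted protein gene Fam3c (r = 0.994), the nucleosome-binding protein Hmgn1 (0.990), the glyoxalase Glo1 (0.987), the sterol synthesis scaffold Erg28 (0.987) and Btbd6 (0.986). Fam3c read 947.3 in siCtrl untreated, 1419 in siMLL untreated and 1249 in siGABP untreated cells. After KLA it read 559.1 with siCtrl, 805.8 with siMLL and 695.2 with siGABP. As for Slc46a3, siCtrl was lowest in either state, which is not independent of choosing Fam3c for its likeness. The differences of Fam3c from siCtrl after KLA, 0.55 with siMLL and 0.33 with siGABP, were smaller than those of Slc46a3. The profiles of Slc2a6 and Slc46a3 themselves ran opposite to each other (r = -0.68).

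**Figure D5:**
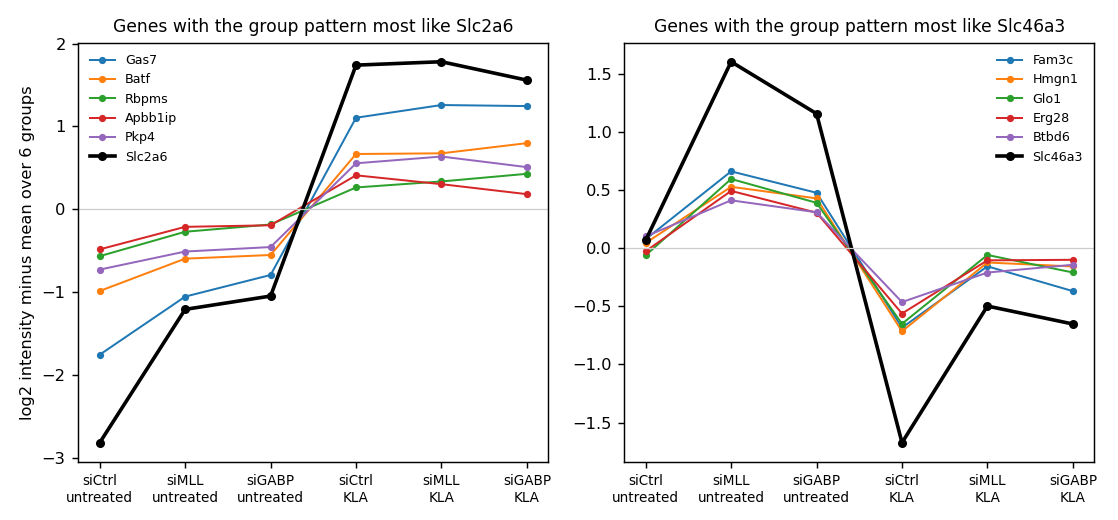
Log2 intensity minus its mean over the 6 groups for Slc2a6 (left, black) and Slc46a3 (right, black) and for the 5 genes with the most similar group pattern (colours); each point is 1 array except siMLL untreated, the mean of 3. The coloured lines span smaller ranges than Slc2a6 and Slc46a3.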

How the data were processed

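RNA of mouse macrophages was hybridised to 8 Illumina arrays. The intensity values were deposited by the authors on a linear scale, and the submitters' processing notes name BeadStudio 1.5.1.3. The sorted values were identical between arrays (largest difference 0), as quantile normalisation leaves them. A further 16 columns matched no label and were not used. Probes were named by the platform annotation (20917 with 1 gene, 1 with several, 3060 with none). Values were corrected with normexp (offset 50), quantile-normalised and put on a log2 scale with limma 3.58.1 in R 4.3.3. Probes with a mean above the median of all probes (6.73) were kept, and p-values were adjusted (Benjamini-Hochberg, two-sided) over the 11989. The KLA response came from an additive model of siRNA and KLA with 4 residual degrees of freedom, and the siRNA comparisons from a fit of the 6 group means with 2. In the additive model the residual also holds the disagreement of the siRNA groups over KLA. Variances were moderated with 7.16 and 5.74 prior degrees of freedom. The scripts were tested on simulated data. The false share of calls there ran from 6.43% (KLA response) to 8.40% (siGABP against siCtrl after KLA). It thus lay above the level set by the adjusted p threshold in every comparison. Each list gene was read by its brightest probe passing the filter.

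The genes, lists and tests were chosen with earlier results of these data, KLA arrays included, known. Named were every measured SLC2 and SLC46 gene, the largest called changes of the other lists (up to 4 each way for KLA, up to 3 for the siRNAs), and the 5 genes most like each transporter. Alternatives were no background correction, an offset of 16, no filter, 1 probe per gene, a variance trend, leaving out each array and, for KLA, a model with a mean per group. Precision is limited by how few arrays there are.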

Additional observations from a re-analysis of the deposited data

How the results depend on the processing

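The direction of every tested difference of Slc46a3 and of the KLA response of Slc2a6 was kept under all alternatives that could be run. The KLA rise of Slc2a6 ranged from 2.86 to 3.67 on the log2 scale and the fall of Slc46a3 from -2.06 to -1.88 when single arrays were left out. Leaving out a siCtrl array, a siGABP array or the siMLL KLA array takes that siRNA out of the additive KLA estimate. The siMLL difference of Slc46a3 after KLA lost its call with an offset of 16 (log2 1.45). The untreated differences of Slc2a6, which carry no test, moved to 1.74 (siMLL, offset 16), 1.77 (siGABP, no background correction) and 1.91 (siGABP, offset 16).

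Counts of called probes depended on the processing. For siMLL after KLA, 38 became 96 without background correction, 1 with an offset of 16, 12 without the filter, 63 with 1 probe per gene and 149 with a variance trend, and leaving out siMLL untreated replicates gave 21 to 194. For siGABP after KLA, 778 became 280 with the offset of 16 and 255 without the filter, and 540 to 1861 with replicates left out. For siMLL untreated, 156 became 255, 24, 70 and 287 (no correction, offset 16, no filter, variance trend), and 64 to 296 with replicates left out. For siGABP untreated, 77 became 178, 6, 30 and 196 in the same order, and 46 to 293. The highest count came without replicate 2 and the lowest without replicate 3 in each. The causes were not tested. Across the alternatives, 592 values of the named list genes kept their side of the threshold, and 18 kept the direction and lost the call. Values without a call could change sign among the 592. The KLA response of Slc2a9 did so (log2 -0.07, and 0.02 without a siGABP array). A lone array could not be left out of the siRNA comparisons, since its group would be gone. No paired analysis was possible because only the siMLL untreated group carries replicate numbers. Dim probes cannot be told from background without detection values, and the folds of dim probes are understated.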
